A study of Homo sapiens with 24 samples.

Results

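Proteasome subunit genes were taken as every row of the RNA-seq table whose symbol is PSMA, PSMB, PSMC, PSMD, PSME, PSMF or PSMG and a number with nothing after it. The rule gave 47 of 15862 genes. Another 6 rows carry a member's name with a suffix (PSMA3-AS1, PSMB8-AS1, PSMC3IP, PSMD5-AS1, PSMD6-AS2 and PSMG3-AS1) and were not counted as members. The 47 comprise 8 genes of the alpha ring, 7 of the constitutive beta ring, 3 immunoproteasome beta genes, 6 base ATPases, 3 other base subunits, 8 lid subunits, 3 base assembly chaperones, 4 activators, 1 inhibitor and 4 core assembly chaperones. The 5 immunoproteasome genes PSMB8, PSMB9, PSMB10, PSME1 and PSME2 were set against the other 42.

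The proteasome is the main machine that degrades ubiquitin-tagged proteins in human cells. Its core particle is a barrel of alpha rings around beta rings that hold the cutting sites, and a regulatory particle of ATPases and lid subunits recognises, unfolds and feeds the substrate. In lymphoid and interferon-exposed cells the 3 cutting subunits PSMB5, PSMB6 and PSMB7 can be replaced by PSMB8, PSMB9 and PSMB10, which yields the immunoproteasome and a different set of peptides for display on MHC class I. PSME1 and PSME2 together form an interferon-inducible cap that opens the core without using ATP.

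All libraries were polyadenylated RNA from LOUCY and JURKAT, human cell lines of T-cell acute lymphoblastic leukaemia, each a single established line kept in RPMI-1640 with 10% FCS. LOUCY is used to stand for early T-cell precursor leukaemia, and JURKAT for disease arrested later in T-cell development. The LOUCY groups were JQ1 at 250 nM for 24 h (n = 4), I-BET151 at 500 nM for 24 h (n = 4), 0.05% DMSO for 24 h (n = 4) and untreated cells (n = 6), and the remaining group was untreated JURKAT (n = 6). Both compounds block the bromodomains with which BET proteins bind acetylated histones. JQ1 is a thienotriazolodiazepine and I-BET151 a dimethylisoxazole on an imidazoquinolinone core, and the labelled doses differ. Every group was divided evenly between 2 experiments. Inhibitors were applied to LOUCY alone, and the labels give no time in culture for untreated cells and do not say whether libraries of 1 experiment were separate cultures. The p-values then measure the spread between these libraries, which may be technical in part.

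The depth was 4381134 to 7074198 gene reads per library, with 15342 to 15712 genes above 0. Of 9 T-lineage markers, CD3D averaged 1531 RPKM in LOUCY and 915 RPKM in JURKAT, while CD2 averaged 0.0562 RPKM in LOUCY and 61.9 RPKM in JURKAT. Of 11 markers of other cell types 6 are in the table. Of these 5 averaged under 1 RPKM in every group, and CD79A, a B-cell receptor component, averaged 476 RPKM in LOUCY and 17.3 RPKM in JURKAT. Its part in the results was not tested. The deviation of each library from its group mean was fitted against gene GC content. In 3 libraries of experiment 2 it varied more steeply than elsewhere, at -0.31 log2 units per 10 percentage points of GC in I-BET151 replicate 1. The slope was -0.28 in DMSO replicate 1 and -0.23 in untreated LOUCY replicate 2, against -0.12 to 0.16 in the rest. A group mean includes the library itself, so a steep library also shifts the slopes of its group.

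Promoter windows of 5 members show which letters lie in front of the genes the results turn on. PSMB8 and PSMB5 form the pair that differed most between the lines, PSMB8, PSMB5, PSME2 and PSMG4 fell under both inhibitors, and PSMB10 is an immunoproteasome gene that passed the threshold in no comparison. Each window runs from 250 bases before to 50 bases after the gene's start, on the gene's own strand, from RefSeq on GRCh38.p14. The windows are chr6:32844630-32844929 (minus strand) for PSMB8, chr14:23035171-23035470 (minus) for PSMB5, chr16:67936801-67937100 (minus) for PSMB10, chr14:24146561-24146860 (minus) for PSME2 and chr6:3258697-3258996 (plus) for PSMG4. Capitals mark GAAA followed by any 2 bases and GAAA again, a pair of core sites of the interferon regulatory factors.
PSMB8: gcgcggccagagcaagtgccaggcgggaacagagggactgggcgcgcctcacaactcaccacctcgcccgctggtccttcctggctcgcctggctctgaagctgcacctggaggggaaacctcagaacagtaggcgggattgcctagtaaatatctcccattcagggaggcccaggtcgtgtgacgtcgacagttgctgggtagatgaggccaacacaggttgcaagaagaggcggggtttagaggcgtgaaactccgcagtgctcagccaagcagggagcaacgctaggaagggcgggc
PSMB5: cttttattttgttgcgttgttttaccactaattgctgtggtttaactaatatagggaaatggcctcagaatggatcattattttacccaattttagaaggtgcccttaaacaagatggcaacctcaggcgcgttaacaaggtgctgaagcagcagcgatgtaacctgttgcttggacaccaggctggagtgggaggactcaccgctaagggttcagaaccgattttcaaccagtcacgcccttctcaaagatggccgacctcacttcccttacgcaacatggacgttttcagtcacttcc
PSMB10: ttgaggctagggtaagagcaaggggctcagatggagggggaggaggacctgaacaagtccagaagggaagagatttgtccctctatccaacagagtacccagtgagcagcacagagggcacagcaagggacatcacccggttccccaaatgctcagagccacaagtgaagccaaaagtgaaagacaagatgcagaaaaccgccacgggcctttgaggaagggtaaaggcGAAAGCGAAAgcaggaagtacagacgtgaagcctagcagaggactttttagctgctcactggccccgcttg
PSME2: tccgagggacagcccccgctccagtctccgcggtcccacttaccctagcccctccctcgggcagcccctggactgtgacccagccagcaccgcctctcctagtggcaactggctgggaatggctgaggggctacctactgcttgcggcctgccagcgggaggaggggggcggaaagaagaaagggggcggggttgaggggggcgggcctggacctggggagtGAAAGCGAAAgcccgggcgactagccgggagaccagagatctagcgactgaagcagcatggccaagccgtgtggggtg
PSMG4: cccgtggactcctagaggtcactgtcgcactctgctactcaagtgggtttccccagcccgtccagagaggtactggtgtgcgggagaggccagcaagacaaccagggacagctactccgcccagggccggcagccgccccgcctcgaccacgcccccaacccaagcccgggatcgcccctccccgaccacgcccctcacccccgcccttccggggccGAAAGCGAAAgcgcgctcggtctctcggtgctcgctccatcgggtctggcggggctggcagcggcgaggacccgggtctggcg

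A window was found for 41 of the 47 members, and 5 motifs were searched on both strands. The interferon regulatory factor pair lay in 6 of the 41, against 3.57% of all 35116 promoter windows of the same length. The 6 were 3 of the 5 immunoproteasome genes (PSMB10, PSME1 and PSME2) and 3 of 36 other members (PSMA4, PSMB4 and PSMG4). In PSMB10, PSME2 and PSMG4 the letters were the same 10, GAAAGCGAAA, at positions -21, -28 and -33 from the start, and PSME1 held them on the opposite strand at position 5. The STAT motif TTCNNNGAA lay in 5 members (12.2%, against 7.66% of all windows), TGACNNNGC, the antioxidant response core, in 13 (31.7%, against 13.4%), the NF-Y box CCAAT in 18 (43.9%, against 34.6%) and the E-box CACGTG in 3 (7.32%, against 7.26%). Matches of different motifs overlapped in 0 cases among the members. A match describes letters and not a bound site.

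Levels of members spread widely within each group. In untreated LOUCY 29 of the 47 averaged at least 100 RPKM and 45 at least 10 RPKM, and in untreated JURKAT 32 and 44 did. PSMB1, a structural beta subunit, had the highest level in all 5 groups, with a mean of 871 RPKM under JQ1, 825 under I-BET151, 857.5 under DMSO, 836 in untreated LOUCY and 725 in untreated JURKAT. By role, the alpha ring stood above the lid on this per-length scale. It had a median level of 326.5 RPKM in untreated LOUCY and 542 RPKM in JURKAT, while the lid had 119.8 RPKM in LOUCY and 148 RPKM in JURKAT.

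At the low end, PSMC1, an ATPase of the base, averaged 2.40 RPKM under JQ1, 2.01 under I-BET151, 3.15 under DMSO, 2.56 in untreated LOUCY and 2.79 in untreated JURKAT, the lowest level of the 6 base ATPases in each group. How multi-mapped reads were counted is not stated, and 97.7% of the 31-base words of PSMC1 also occur in other annotated genes, 13 pseudogenes are annotated for it, and 75.8% of its exon bases overlap NRDE2 on the opposite strand. Its values are therefore uncertain. PSMA6 shares 85.9% of its words, and PSMB8 shares 29.9% and overlaps the antisense gene PSMB8-AS1 over 20.6% of its exon bases. PSMB9 shares 14.3%, and its exon bases overlap PSMB8-AS1 (5.7%) and PSMB8 (4.5%). The library method does not mark strand, so reads of such partners cannot be told apart.

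The untreated lines were compared to ask how the proteasome genes differ between them at rest. Of 47 members, 8 were higher in LOUCY, 26 were lower and 13 did not pass the threshold (limma, Benjamini-Hochberg adjusted p under 0.05 over all genes tested). Among the 26, PSMA8 met the filter of 1 RPKM in at least 4 libraries through JURKAT alone. Across all 11978 genes tested, 35.5% were higher and 37.5% were lower. The median log2 difference was -0.27 over members and -0.02 over all genes. In bulk RNA, fewer cells that express a gene and less of its RNA per cell cannot be told apart. Of the 5 immunoproteasome genes 3 were higher and 0 were lower, with a median log2 difference of 0.31, and of the other 42 genes 5 were higher and 26 were lower, with a median of -0.34.

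PSMB8, the immunoproteasome counterpart of PSMB5, had the largest excess. It ran from 50.05 to 72.7 RPKM in LOUCY with a median of 62.9, against 7.62 to 11.8 RPKM in JURKAT with a median of 9.69. All 6 LOUCY libraries lay above all 6 JURKAT libraries. The log2 difference was 2.54 (SE 0.08, limma adjusted p = 3.99e-13), with 2.58 in experiment 1 and 2.49 in experiment 2.

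PSMB9, which takes the place of PSMB6, ran from 35.9 to 47.4 RPKM in LOUCY with a median of 43.7, against 10.9 to 17.1 RPKM in JURKAT with a median of 14.3, and the lines did not overlap. LOUCY exceeded JURKAT by 1.58 log2 units (SE 0.11, limma adjusted p = 3.16e-09). PSMB10, which takes the place of PSMB7, spanned 81.5 to 115 RPKM in LOUCY with a median of 104, against 63.9 to 123 RPKM in JURKAT with a median of 81.9. The lines overlapped, and the log2 difference of 0.23 (SE 0.11) missed the threshold with an adjusted p of 0.0604 from limma. It passed after median-ratio scaling (0.28) and quantile normalization (0.30), in experiment 2 alone (0.43), and without untreated LOUCY replicate 3, JURKAT replicate 1 or JURKAT replicate 3 of experiment 1 (0.27 to 0.29), which would make 4 of the 5 immunoproteasome genes higher.

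The constitutive counterparts of all 3 were lower in LOUCY. PSMB5, the chymotrypsin-like site, ran from 127 to 149.8 RPKM in LOUCY with a median of 133, against 296 to 360.4 RPKM in JURKAT with a median of 313. The lines lay far apart, and the log2 difference was -1.25 (SE 0.07, limma adjusted p = 1.87e-10). PSMB7, the trypsin-like site, had a log2 difference of -0.53 (SE 0.08), with 164 to 243 RPKM in LOUCY against 256.1 to 355 RPKM in JURKAT. PSMB6, the caspase-like site, differed by -0.27 (SE 0.07), and its lines overlapped, with 427 to 519.8 RPKM in LOUCY and 458 to 664 RPKM in JURKAT.

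The share of the immunoproteasome gene in the summed RPKM of its pair was compared between groups. Its size depends on the gene lengths behind RPKM, which are not stated. In untreated LOUCY replicate 1 of experiment 1, PSMB8 had 6121 reads at 72.7 RPKM and PSMB5 had 1165 reads at 134.8 RPKM. PSMB9 had 2119 reads at 42.6 RPKM there, and PSMB6 had 2694 reads at 519.8 RPKM. PSMB8 and PSMB9 were thus divided by longer lengths, so a share cannot be read as a share of transcripts. PSMB8 made up 31.4% ± 4.29 of PSMB8 plus PSMB5 in LOUCY and 2.95% ± 0.311 in JURKAT (SD, n = 6 each). PSMB9 made up 8.55% ± 1.27 of PSMB9 plus PSMB6 in LOUCY and 2.40% ± 0.191 in JURKAT. PSMB10 made up 32.7% ± 2.06 of PSMB10 plus PSMB7 in LOUCY and 22.4% ± 3.49 in JURKAT. On the scale of log2(RPKM + 1) the ratio within a pair was higher in LOUCY by 3.79, 1.85 and 0.76, each with p = 0.00216 in an exact two-sided permutation test, the smallest p that 6 against 6 libraries can give, and 0.0108 after adjustment over the 15 ratio comparisons. Within experiments the differences were 3.96 and 3.62 for PSMB8 over PSMB5, 1.60 and 2.09 for PSMB9 over PSMB6, and 0.48 and 1.04 for PSMB10 over PSMB7. Shares of RPKM give shares neither of transcripts nor of assembled particles.

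**Figure D1:**
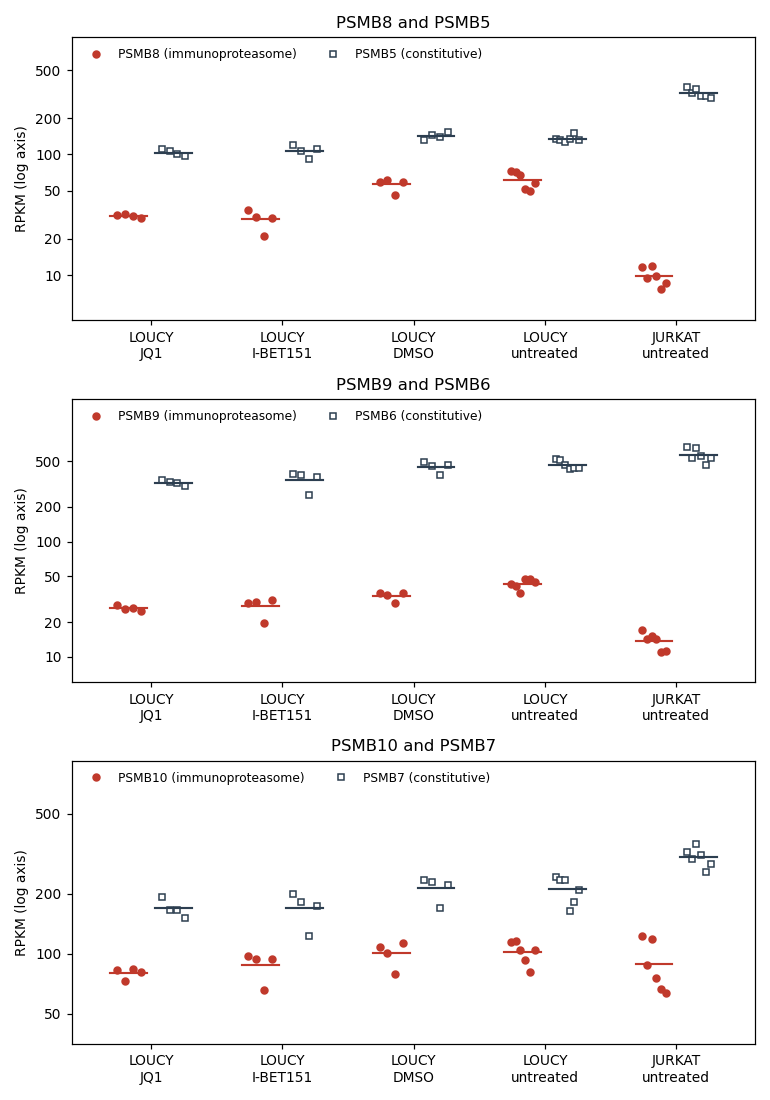
Levels of the 3 immunoproteasome beta genes (filled circles) and the constitutive genes whose place they take (open squares) in every library of the 5 groups, in RPKM on a log axis, with horizontal lines at the group means. PSMB8 averages 62.0 RPKM in untreated LOUCY against 9.84 RPKM in JURKAT, while PSMB5 averages 135 RPKM in LOUCY against 323 RPKM in JURKAT, and PSMB8 lies at 31.01 RPKM under JQ1 and 28.97 RPKM under I-BET151 against 56.5 RPKM under DMSO.

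The activators were divided. PSME2, a subunit of the interferon-inducible cap, ran from 204 to 229 RPKM in LOUCY with a median of 214, against 141 to 209.8 RPKM in JURKAT with a median of 171. The lines overlapped slightly, and the log2 difference was 0.31 (SE 0.08, limma adjusted p = 0.0021). PSME1, its partner, averaged 359 ± 53.2 RPKM in LOUCY and 357 ± 41.8 RPKM in JURKAT (SD, n = 6 each), a log2 difference of 0.00 with a 95% interval of half-width 0.15 that missed the threshold. PSME3, the nuclear activator, was lower, with a log2 difference of -0.39 (SE 0.07), and spanned 68.0 to 97.0 RPKM in LOUCY and 88.4 to 129 RPKM in JURKAT.

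In the alpha ring 5 of 8 genes were lower in LOUCY and 0 were higher. PSMA8, an alpha subunit best known from the testis, gave 0 to 2 reads in each untreated LOUCY library and 78 to 147 reads in each JURKAT library. Its level was 0.109 ± 0.0687 RPKM in LOUCY and 11.0 ± 2.1 RPKM in JURKAT (SD, n = 6 each), and the log2(RPKM + 1) difference was -3.42 (SE 0.12). Because PSMA8 met the filter on low values through JURKAT alone, its call as lower is a description and not a test. PSMA3, part of every core, ran from 271 to 436 RPKM in LOUCY with a median of 302, against 591 to 768 RPKM in JURKAT with a median of 625, a log2 difference of -1.01 (SE 0.11). PSMA6 ran from 281 to 385 RPKM in LOUCY with a median of 336, against 570.0 to 669 RPKM in JURKAT with a median of 623, a log2 difference of -0.90 (SE 0.08). Neither gene's lines overlapped. PSMA5 and PSMA1 were also lower, with log2 differences of -0.77 and -0.27, while PSMA2, PSMA4 and PSMA7 did not pass the threshold.

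In the constitutive beta ring 5 of 7 genes were lower and 1 was higher. PSMB1 ran from 739 to 960.2 RPKM in LOUCY and from 633 to 798 RPKM in JURKAT, and its small excess (log2 difference 0.20, SE 0.07, limma adjusted p = 0.0207) missed the threshold without untreated LOUCY replicate 1 or 2 of experiment 1 (0.18 and 0.19). Of the regulatory particle's 6 ATPases 3 were higher (PSMC6, PSMC5 and PSMC3) and 2 were lower (PSMC4 and PSMC2). PSMC6 was the clearest of these, at 75.9 to 92.7 RPKM in LOUCY and 46.4 to 59.1 RPKM in JURKAT without overlap, with a log2 difference of 0.66 (SE 0.07). PSMC5 followed with 0.26 (SE 0.08), and the excess of PSMB1, PSMC3 and PSMC5 was lost in a fit without the experiment term and in a voom fit of recovered reads, both of which left 5 members higher.

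The lid, which holds the deubiquitinase PSMD14, had 6 of 8 genes lower and 0 higher, and all 3 of the other base subunits, among them the ubiquitin receptor PSMD4, were lower. PSMD13, a lid subunit, ran from 86.2 to 137 RPKM in LOUCY and from 209 to 268 RPKM in JURKAT without overlap, a log2 difference of -0.99 (SE 0.09). Among the chaperones that assemble the base, PSMD5 and PSMD9 were lower. PSMD5 stood at 10.1 to 13.0 RPKM in LOUCY and at 25.4 to 31.6 RPKM in JURKAT, a log2 difference of -1.21 (SE 0.08). The core assembly chaperones PSMG1 and PSMG2, which work as a pair, ran in opposite directions. PSMG1 was lower, with a log2 difference of -0.66 (SE 0.08), and PSMG2 was higher, with 0.55 (SE 0.07). PSMF1, the inhibitor, was lower, with -0.34 (SE 0.09). The 13 members that missed the threshold lay between -0.18 (PSMD12) and 0.23 (PSMB10).

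Members lie on 17 chromosomes. PSMB8 (chromosome 6, 32840717 to 32844703, minus strand) and PSMB9 (32844136 to 32859585, plus strand) lie head to head in the MHC class II region, on GRCh38 with GENCODE 29. Their starts overlap, and they share 139 exon bases on opposite strands, where reads of the 2 genes cannot be told apart. PSMB10 lies apart, on chromosome 16 at 67934502 to 67937087. PSMB5, PSME1 and PSME2 lie on chromosome 14, which holds 7 members. Of these 2 were higher in LOUCY and 3 were lower, beside 35.5% and 37.5% of all genes.

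**Figure D2:**
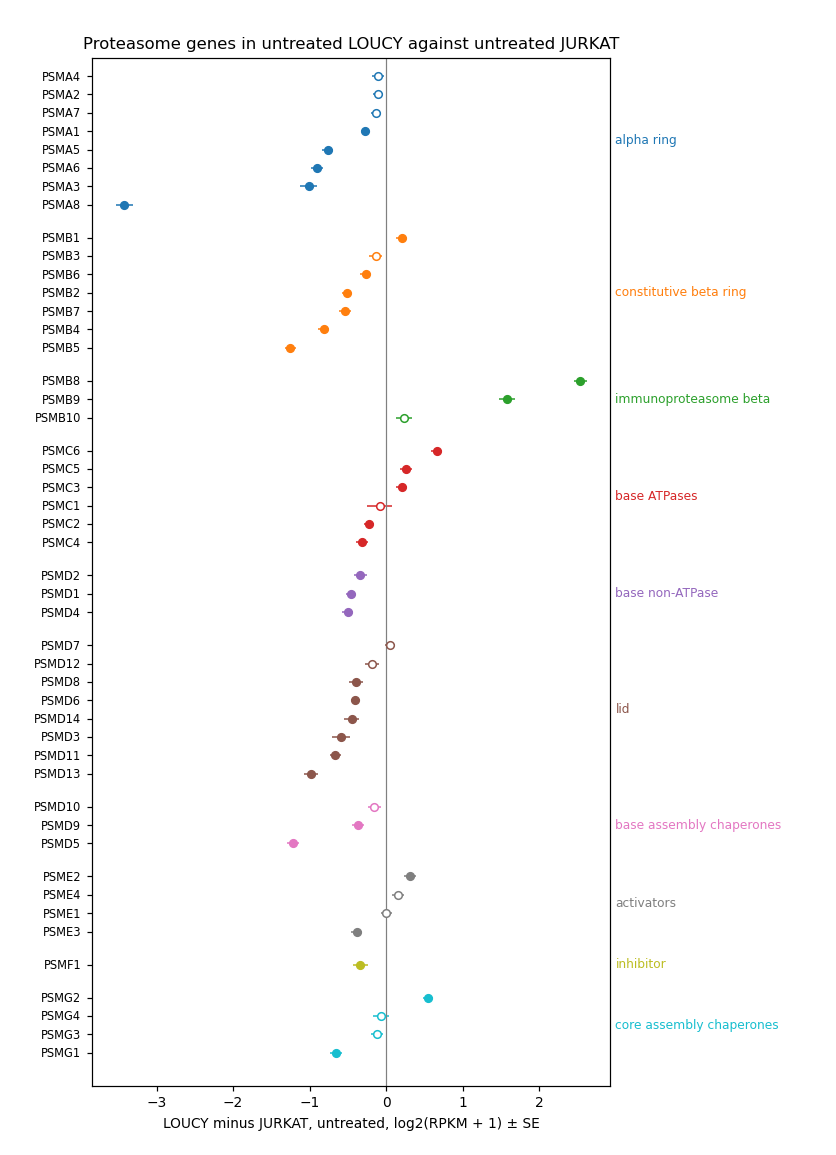
Difference in log2(RPKM + 1) between untreated LOUCY and untreated JURKAT for all 47 members, grouped by role, with horizontal bars for the standard error and filled points for members past the threshold. PSMB8 (2.54) and PSMB9 (1.58) stand to the right, PSMA8 (-3.42) and PSMB5 (-1.25) to the left, and all called lid genes lie below 0. PSMA8 met the filter on low values through JURKAT alone.

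Genes that work around the proteasome without being members were described by their roles, with log2 differences in parentheses, and their counts stand beside 35.5% higher and 37.5% lower of all genes. Of 12 assembly and associated factors 1 was higher in LOUCY (AKIRIN2, which brings proteasomes into the nucleus, 0.29) and 8 were lower, among them the proteasome phosphatase UBLCP1 (-1.24) and the ubiquitin receptor ADRM1 (-0.43). The peptide-handling list had 5 of 9 genes higher, among them TAPBP, the tapasin of the MHC class I loading complex (1.70), and 2 lower, BLMH (-0.93) and THOP1 (-0.47), both peptidases. In the list of transcriptional regulators 5 of 10 were higher, led by KEAP1 (1.28) and STAT3 (1.15), and 2 were lower, NFYA (-0.67) and NFE2L1 (-0.41), which drives proteasome genes when activity is short. Ubiquitin shuttles were split at 4 higher and 3 lower of 9, and ubiquitin genes at 3 higher, with UBB at 0.85, and 2 lower of 6.

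DMSO was set against untreated LOUCY to see what the vehicle did. Of 46 members tested 0 passed the threshold in limma, against 0.175% of all 11411 genes tested (3 higher and 17 lower, or 4 and 11 after quantile normalization and 2 and 5 under voom). Under voom 0 members passed as well. PSMA8 did not reach 1 RPKM in at least 4 LOUCY libraries, the filter on low values, and was not tested here or under the inhibitors. At an unadjusted p under 0.05 there was 1 of the 46 members, PSMB9, against 1100 of all 11411 genes. PSMB9 was at 35.7, 34.2, 29.5 and 35.7 RPKM under DMSO, against 35.9 to 47.4 RPKM in untreated LOUCY with a median of 43.7. The groups did not overlap, and the log2 difference was -0.34 (SE 0.12) with an adjusted p of 0.306 from limma. Over the 46 members the log2 differences ran from -0.34 to 0.22. The log2 ratio within a pair differed by -0.28 for PSMB9 over PSMB6 (exact permutation p = 0.019, 0.0612 adjusted). It differed by -0.20 for PSMB8 over PSMB5 and by -0.04 for PSMB10 over PSMB7 (exact permutation p = 0.238 and 0.629).

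The comparison of JQ1 with DMSO addresses how BET inhibition changed these genes. Of 46 members 0 rose and 12 fell (limma adjusted p under 0.05), against 10.1% higher and 15.9% lower of all 11411 genes tested. As a share this was 26.1% of members. After quantile normalization it was 10.9% of members against 13.6% of all genes, under voom 13.0% against 12.6%, and without the experiment term 15.2% against 14.3%, so in those fits the members' share was below or close to that of all genes. The median log2 difference was -0.11 over members and -0.01 over all genes. Of the 5 immunoproteasome genes 2 fell (PSMB8 and PSME2), and of the other 41 tested 10 fell. By role these were 4 of 7 constitutive beta genes (PSMB2, PSMB5, PSMB6 and PSMB7), 3 of 4 core assembly chaperones (PSMG1, PSMG2 and PSMG4), 2 of 7 alpha genes (PSMA5 and PSMA6) and 1 of 6 ATPases (PSMC3). Of the 8 lid genes and the 3 other base subunits 0 passed. All 12 had the same sign in both experiments. In experiment 1 alone 14 members passed, 12 lower (26.1%, against 17.5% of all genes) and 2 higher (4.35%, against 12.8%). These held 9 of the 12, without PSMA5, PSMB2 and PSMG2, and added PSMB9, PSMB10 and PSMC5 as lower. In experiment 2 alone 0 passed. Each experiment held 2 JQ1 and 2 DMSO libraries. The 34 members that missed the threshold lay between -0.34 (PSMB9) and 0.27 (PSMD3).

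I-BET151, set against the same DMSO libraries, gave 0 members that rose and 12 that fell of 46, against 10.3% higher and 15.9% lower of all genes. As a share this was 26.1% of members. After quantile normalization it was 13.0% of members against 14.0% of all genes, under voom 13.0% against 13.9%, without the experiment term 15.2% against 14.1%, and in a fit of I-BET151 and DMSO alone 6.52% against 9.54%, again below or close to the share of all genes. The median log2 difference was -0.12 over members and 0.00 over all genes. Of the 5 immunoproteasome genes 2 fell, PSMB8 and PSME2, and of the other 41 tested 10 fell. These 10 were PSMB2, PSMB5, PSMB6 and PSMB7 of the beta ring, the ATPases PSMC1, PSMC3 and PSMC5, the chaperones PSMG2 and PSMG4, and PSMA6. All 12 had the same sign in both experiments. In experiment 1 alone 10 members passed, 9 of the 12 as lower (19.6%, against 14.2% of all genes) and 1, PSMD10, as higher. PSMB2, PSME2 and PSMG2 missed the threshold there. In experiment 2 alone 1 passed (PSMB8). The 34 that missed the threshold lay between -0.31 (PSMG1) and 0.29 (PSMD10). Because both inhibitors share their 4 DMSO libraries, the lists are not independent of each other.

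PSMB8 fell most of all members under both compounds. It was at 31.3, 31.8, 31.2 and 29.8 RPKM under JQ1 and at 34.9, 30.3, 21.2 and 29.5 RPKM under I-BET151, against 58.8, 61.6, 45.9 and 59.7 RPKM under DMSO. Every treated library lay below every DMSO library. The log2 difference was -0.84 (SE 0.12, limma adjusted p = 3.43e-05) for JQ1 and -0.95 (SE 0.12, adjusted p = 8.84e-06) for I-BET151. The lowest DMSO value and the lowest I-BET151 value belonged to 2 of the 3 libraries with the steep GC slope, and within experiment 1, which holds none of them, the differences were -0.91 and -0.87. In experiment 2 they were -0.76 and -1.04. CD79A, the B-cell marker with a high level in LOUCY, moved with these genes, at 243 RPKM under JQ1 and 223 RPKM under I-BET151 against 402 RPKM under DMSO. Of 7 T-lineage markers tested 4 fell under each compound (CD3D, CD3E, CD3G and LCK), against 15.9% of all genes. Their log2 differences were -0.59 (CD3E) to -2.12 (LCK) under JQ1 and -0.66 (CD3E) to -2.07 (LCK) under I-BET151. PTPRC ran the other way, at 143 RPKM under JQ1 and 158 RPKM under I-BET151 against 118 RPKM under DMSO, and passed as higher under I-BET151. The part of these markers in the result was not tested.

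PSMB5, whose place PSMB8 takes, fell as well. PSMB5 was at 111, 107, 100.2 and 96.6 RPKM under JQ1 and at 119, 107, 91.8 and 111 RPKM under I-BET151, against 133, 144, 140.2 and 153 RPKM under DMSO, again with no overlap. Its log2 differences were -0.45 (SE 0.09, limma adjusted p = 0.00136) and -0.41 (SE 0.09, adjusted p = 0.00312). PSMB8 made up 23.0% ± 0.791 of the pair's RPKM under JQ1 and 21.1% ± 1.72 under I-BET151, against 28.4% ± 2.70 under DMSO (SD, n = 4 each). The log2 ratio differed by -0.38 and -0.54, each with an exact permutation p of 0.0286, the smallest that 4 against 4 libraries can give, and of 0.0612 after adjustment over the 15 ratio comparisons.

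PSMB6 and PSMB7 fell under each inhibitor, while PSMB9 and PSMB10 missed the threshold in the fit of all libraries. PSMB6 was at 341, 329, 322 and 306 RPKM under JQ1 and at 386, 379, 252 and 362 RPKM under I-BET151, against 486, 452, 376 and 464 RPKM under DMSO. JQ1 libraries all lay below DMSO, and 2 I-BET151 libraries lay above the lowest DMSO library. The log2 differences were -0.45 (SE 0.10) and -0.38 (SE 0.10). PSMB9 had log2 differences of -0.34 (SE 0.13, limma adjusted p = 0.066) and -0.29 (SE 0.13, adjusted p = 0.109), which missed the threshold. It made up 7.54% ± 0.148 of its pair under JQ1 and 7.42% ± 0.347 under I-BET151, against 7.07% ± 0.189 under DMSO. The log2 ratio was higher by 0.11 under JQ1, the opposite direction to PSMB8 over PSMB5 with the same exact permutation p of 0.0286 (0.0612 adjusted). Under I-BET151 it was higher by 0.08 (exact permutation p = 0.0571). Between DMSO and untreated LOUCY the ratio of PSMB9 over PSMB6 differed by more, -0.28 (exact permutation p = 0.019, 0.0612 adjusted).

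PSMB7 averaged 169 ± 17.2 RPKM under JQ1 and 169 ± 33.5 RPKM under I-BET151, against 213 ± 29.8 RPKM under DMSO (SD, n = 4 each), with log2 differences of -0.32 and -0.34 (SE 0.12 each). PSMB10 averaged 80.3 ± 4.92 RPKM under JQ1 and 88.0 ± 14.7 RPKM under I-BET151, against 100.4 ± 15.1 RPKM under DMSO, with log2 differences of -0.31 (SE 0.13, limma adjusted p = 0.0895) and -0.19 (SE 0.13, adjusted p = 0.301). Its share of the pair was 32.2% ± 2.26 under JQ1 and 34.3% ± 1.1 under I-BET151, against 32.1% ± 1.39 under DMSO. Under JQ1 the differences of PSMB7 and PSMB10 were thus of like size, and their log2 ratio differed by 0.01 (exact permutation p = 0.971). PSMB7 itself passed under JQ1 in 6 of the 18 fits that left out a library. None of the 6 ratio tests of inhibitor against DMSO passed after adjustment. Beside the other p-values obtained, the smallest exact permutation p that 4 against 4 libraries can give came to 0.0612 after adjustment. Even complete separation of the groups thus missed the threshold, and the misses do not show that the ratios stayed the same.

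The JQ1 values of PSMB9 and PSMB10 depended on the libraries used. Both passed as lower in experiment 1 alone (-0.36 and -0.42), without the 3 libraries with the steep GC slope (-0.41 each), without DMSO replicate 1 of experiment 2 (-0.40 each) and without I-BET151 replicate 1 of experiment 2 (-0.34 and -0.31), which enters the fit through the shared spread. PSMB9 also passed in a fit of JQ1 and DMSO alone. In each of the 4 fits where both passed, PSMB8 and PSME2 passed too, so that 4 of the 5 immunoproteasome genes were lower under JQ1. These fits were picked because PSMB9 and PSMB10 passed in them, and the fit of all libraries gave 2 of the 5. PSMB10 missed the threshold in every other JQ1 fit. Of all genes, up to 21.0% were lower in these 4 fits, against 15.9% in the fit of all libraries.

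**Figure D3:**
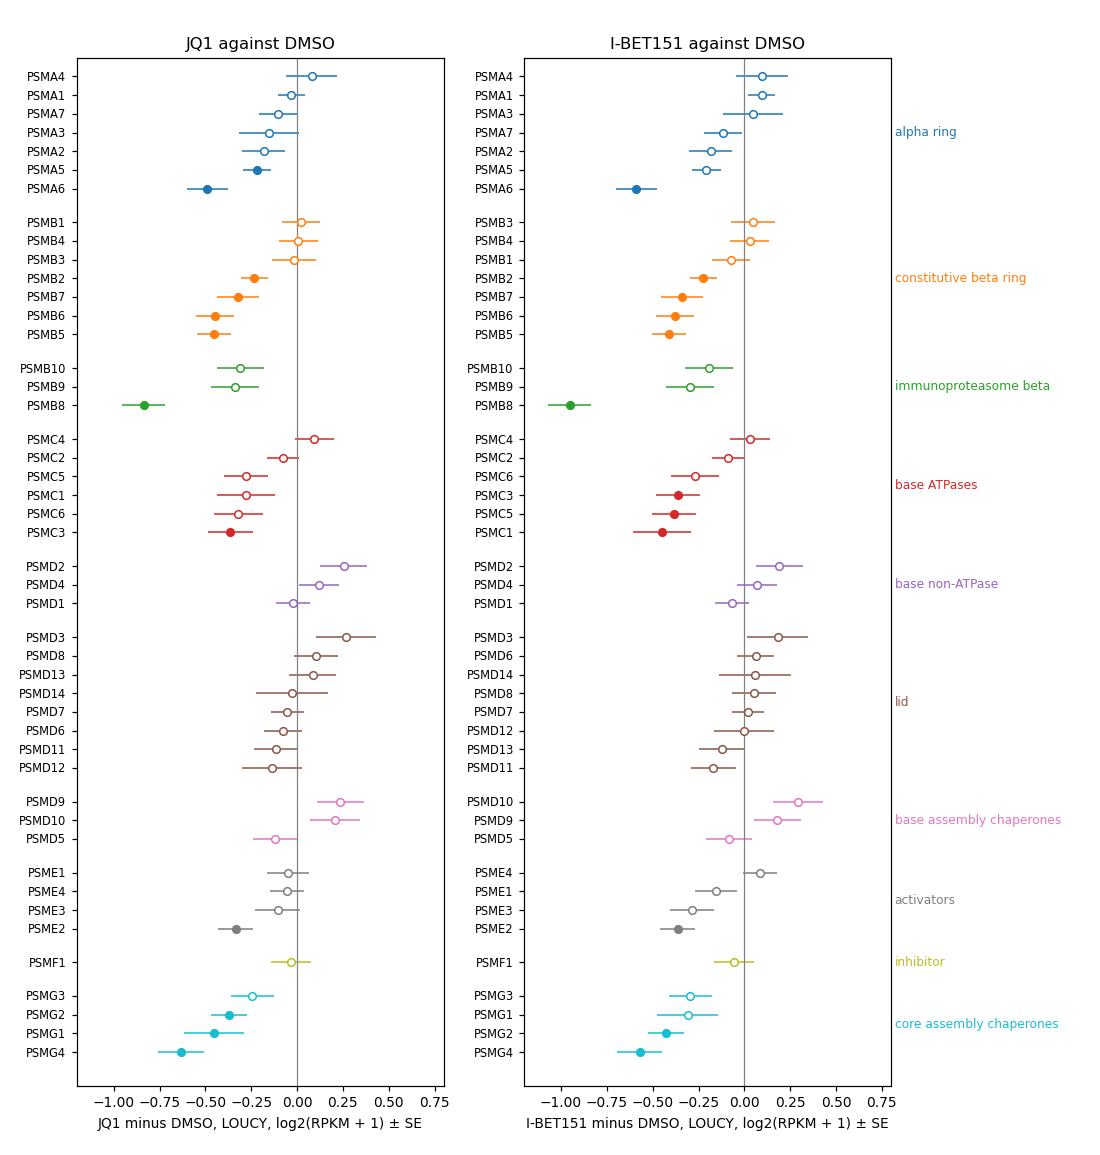
Differences in log2(RPKM + 1) between JQ1 and DMSO (left) and between I-BET151 and DMSO (right) in LOUCY for the 46 members tested, grouped by role, with bars for the standard error and filled points for members past the threshold. PSMB8 lies farthest left in both panels, at -0.84 and -0.95, and both panels share the same 4 DMSO libraries.

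Of the alpha ring, PSMA6 was at 256.2, 266, 241 and 226 RPKM under JQ1 and at 266, 257, 172 and 239 RPKM under I-BET151, against 334, 344, 393 and 320.4 RPKM under DMSO. No treated library reached the lowest DMSO library, and the log2 differences were -0.49 (SE 0.11, limma adjusted p = 0.00346) and -0.59 (SE 0.11, adjusted p = 0.000769). Among the core assembly chaperones, which hold alpha and beta subunits while the rings form, PSMG4 was at 15.5, 14.7, 18.4 and 15.3 RPKM under JQ1 and at 20.01, 19.1, 13.1 and 15.4 RPKM under I-BET151, against 26.9, 27.9, 22.9 and 23.7 RPKM under DMSO. The groups did not overlap, with log2 differences of -0.63 (SE 0.12) and -0.57 (SE 0.12). PSMG2 had log2 differences of -0.37 (SE 0.10) and -0.43 (SE 0.10), also without overlap.

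PSME2, which joins PSME1 in the cap, was at 169, 161, 169 and 165 RPKM under JQ1 and at 172, 183, 129.8 and 172 RPKM under I-BET151, against 196, 219.9, 207 and 216 RPKM under DMSO. All treated libraries lay below all DMSO libraries, with log2 differences of -0.33 (SE 0.09, limma adjusted p = 0.0134) and -0.36 (SE 0.09, adjusted p = 0.00793). PSME1 had -0.05 (SE 0.11) and -0.15 (SE 0.11), and PSME3 had -0.11 (SE 0.12) and -0.29 (SE 0.12), none of which passed. PSMB1 had 0.02 and -0.07 (SE 0.10 each), also short of the threshold.

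**Figure D4:**
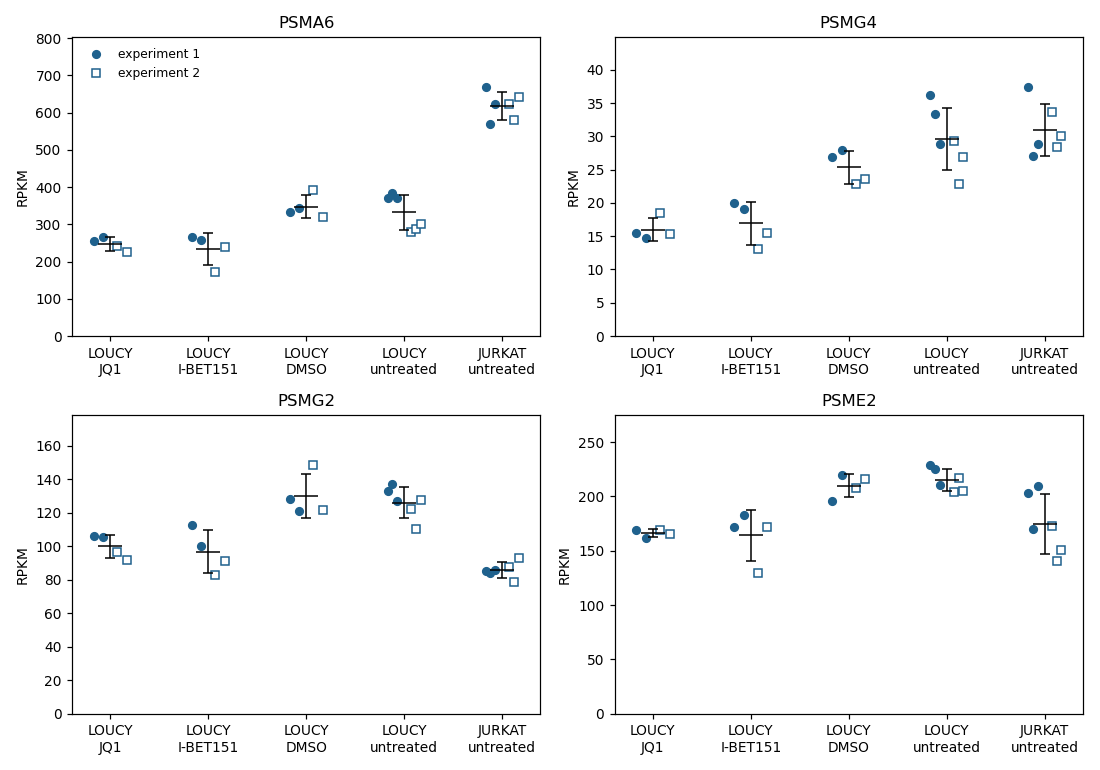
Levels of PSMA6, PSMG4, PSMG2 and PSME2 in RPKM in each library of the 5 groups (filled circles for experiment 1, open squares for experiment 2), with black bars for the mean ± SD. In all 4 panels both inhibitor groups lie below DMSO without overlap, while the lines differ clearly in PSMA6, at 333 RPKM in untreated LOUCY against 618.3 RPKM in JURKAT, and PSMG4 averages 29.6 RPKM in LOUCY and 30.9 RPKM in JURKAT.

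The 12 falls under each inhibitor were not equally firm. For JQ1, PSMA6, PSMB5, PSMB6, PSMB8, PSME2, PSMG2 and PSMG4 passed in all 18 fits that left out a library, and PSMA5, PSMB2, PSMB7, PSMC3 and PSMG1 did not. The count fell to 7 without DMSO replicate 2 or JQ1 replicate 1 of experiment 1, or without JQ1 replicate 2 of experiment 2. Those 7 were 15.2% of members, close to the 13.5%, 12.8% and 13.6% of all genes that were lower in those fits. Without DMSO replicate 2 of experiment 2, 1 member passed as higher (2.17%, against 9.72% of all genes). PSMA5 passed in 4 of the 18 fits, PSMG1 in 5 and PSMB7 in 6. For I-BET151, PSMA6, PSMB5, PSMB6, PSMB8, PSME2, PSMG2 and PSMG4 passed in all 18 fits, and PSMB2, PSMB7, PSMC1, PSMC3 and PSMC5 did not. The count fell to 7 without I-BET151 replicate 2 of experiment 1 (15.2% of members, close to 13.2% of all genes). Across 11 other settings (scaling, filters, model terms and the fit without the steep-GC libraries), 4 members passed in each under JQ1 (PSMA6, PSMB5, PSMB8 and PSMG4) and 3 under I-BET151 (PSMA6, PSMB8 and PSMG4). PSME2 missed the threshold for JQ1 after quantile normalization (-0.27) and under voom (-0.28), and for I-BET151 in a fit of those 2 groups alone (-0.36). PSMG2 missed it for JQ1 under voom and for I-BET151 in that 2-group fit. In experiment 1 alone, which has fewer libraries, PSMG2 missed it under both compounds and PSME2 under I-BET151. In experiment 2 alone both genes missed it under both compounds.

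Without the 3 libraries with the steep GC slope, 16 members fell under JQ1 (34.8%, against 21.0% of all genes) and 1 rose (PSMD10). The falls gained were PSMB9, PSMB10, PSMC5 and PSMG3. Under I-BET151 14 fell (30.4%, against 17.8% of all genes) and 0 rose, with PSMA5, PSMG1 and PSMG3 gained and PSMC1 lost.

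JQ1 and I-BET151 were also set against each other, at doses that differ. Of 46 members 0 passed the threshold, and of all 11411 genes 0 did, a background of 0%. At an unadjusted p under 0.05 there were 0 members and 531 of all genes. The log2 differences over members ran from -0.20 (PSMA3) to 0.20 (PSMD13), and the 95% intervals had a median half-width of 0.25. For PSMB8 the difference was 0.12 with an interval of -0.13 to 0.36. A miss of the threshold does not show that the compounds act alike, and differences within those intervals were not detectable.

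Around the proteasome the ubiquitin shuttle list held genes that rose under both compounds. Of 9 shuttle genes tested 3 rose and 0 fell under JQ1, and 3 rose and 0 fell under I-BET151, where 10.1% and 10.3% of all genes rose. With so few genes a list's count is a description only. VCP, the segregase that extracts ubiquitinated proteins, averaged 191 ± 11.4 RPKM under JQ1 and 175 ± 16.7 RPKM under I-BET151, against 121 ± 11.2 RPKM under DMSO (SD, n = 4 each), with log2 differences of 0.65 and 0.53 (SE 0.10 each). UBQLN2, which carries ubiquitinated proteins to the proteasome, averaged 34.7 ± 1.74 RPKM under JQ1 and 34.3 ± 9.38 RPKM under I-BET151, against 19.9 ± 1.15 RPKM under DMSO, with log2 differences of 0.77 and 0.72 (SE 0.14 each). KIAA0368 (also ECPAS), a proteasome adaptor, was the 1 gene of 12 assembly and associated factors to fall, with log2 differences of -0.77 (SE 0.11) and -0.75 (SE 0.11).

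In the peptide-handling list 1 of 9 rose and 3 fell under JQ1, and 1 rose and 4 fell under I-BET151. Of all genes 10.1% and 10.3% rose, and 15.9% fell under each compound. The counts of these small lists are descriptions only. LAP3, a cytosolic aminopeptidase, rose by 0.32 on the log2 scale under each compound. The aminopeptidases ERAP1 and ERAP2, which trim peptides in the endoplasmic reticulum, fell by 0.59 and 0.57 under JQ1 and by 0.53 and 0.56 under I-BET151. Of 10 transcriptional regulators 0 passed under JQ1 and 1, KEAP1, fell under I-BET151. Of 6 ubiquitin genes 0 passed under JQ1, and RPS27A fell under I-BET151 with a log2 difference of -0.27.

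The interaction with the experiment was fitted for all 5 comparisons, and 0 members passed in any of them, with a lowest adjusted p of 0.383 in limma. All 34 members called between the lines had the same sign in both experiments. Of the 34, 30 passed in experiment 1 alone, which added PSMD10 and PSMD12, and 27 passed in experiment 2 alone, which added PSMB10. Experiment 1 alone had 12.8% of members higher and 55.3% lower, against 32.8% and 33.8% of all genes. Experiment 2 alone had 12.8% higher and 46.8% lower, against 28.0% and 31.1% of all genes.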

How the data were processed

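RNA-seq of polyadenylated RNA was prepared with Smart-seq2 and Nextera XT, per the labels' protocols, a method that does not mark strand. The deposited values are RPKM, which the authors scaled to library depth and gene length. The submitters' processing notes name STAR 2.5.1b, featureCounts, Subread 1.4.5-p1, edgeR 3.10.5 and the build hg38. The annotation, gene lengths and treatment of multi-mapped reads are not stated there. RPKM steps gave whole reads for 100% of genes within 0.01 reads, from which depth per library was read.

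Values were tested as log2(RPKM + 1), which understates changes of low genes, with limma 3.58.1 in R 4.3.3, an additive experiment term, a trended empirical Bayes step and a filter of 1 RPKM in at least 4 libraries of the fit. P-values were adjusted by Benjamini-Hochberg over all genes tested, at a threshold of 0.05. The lines were compared in a fit of 12 libraries, and the other 4 comparisons share a fit of 18 LOUCY libraries. The pipeline was tested on simulated data. Ratios within pairs were tested with an exact two-sided permutation test. Named were the immunoproteasome genes, their counterparts, the 6 largest rises and falls past the threshold with 1 sign in both experiments, the highest and lowest member, and of each other list up to 2 genes each way with the smallest adjusted p. The members and lists were chosen with earlier results of these data known. Alternatives were another pseudocount, filters, scalings, no experiment term, each experiment alone, a replicate block, 2-group fits, no trend, voom on recovered reads and fits without libraries. Pseudogene and antisense overlap was computed from GENCODE 29.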

Additional observations from a re-analysis of the deposited data

Results flagged for a closer look

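The 21 named members gave 105 sets of values, 1 per gene and group, and in 8 of them a single value lay far from the rest, where chance flags about 1 in 20. The 8 values sit in 5 libraries. In I-BET151 replicate 1 of experiment 2, PSMB9 was low at 19.69 RPKM, PSMB10 was low at 66.08 RPKM and PSMD13 was low at 76.76 RPKM. In DMSO replicate 1 of experiment 2, PSME1 was low at 252.9 RPKM and PSMC6 was high at 131.8 RPKM. In untreated LOUCY replicate 2 of experiment 2, PSMB5 was high at 149.8 RPKM. These are the 3 libraries with the steepest GC slopes. In JURKAT replicate 2 of experiment 1, PSMA3 was high at 767.7 RPKM, and in JQ1 replicate 2 of experiment 1, PSMG1 was high at 139.5 RPKM.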

How the results depend on the processing

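Between the lines, 8 members higher became 5 without the experiment term and 5 under voom on recovered reads, a fit in which the median of all genes moved to -0.12. The 26 lower stayed within 1.5 times under every setting. For JQ1, 12 lower became 5 after quantile normalization, 7 without the experiment term, 6 under voom and 0 in experiment 2 alone, and 7 to 15 when each library was left out. Members higher under JQ1 numbered 2 in experiment 1 alone, 1 without the 3 steep-GC libraries and 0 to 1 when each library was left out. For I-BET151, 12 lower became 6 after quantile normalization, 7 without the experiment term, 3 with only the 2 groups compared, 6 under voom and 1 in experiment 2 alone, and 7 to 12 when each library was left out, and 1 was higher in experiment 1 alone. An experiment alone has fewer libraries. For the other losses the cause was not tested. The share of all genes lower in the quantile, experiment-term and voom fits was 13.6%, 14.3% and 12.6% for JQ1 and 14.0%, 14.1% and 13.9% for I-BET151, close to the members' shares of 10.9% to 15.2%, and in experiment 2 alone it was 2.64% and 3.15%.

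The pair ratios between the lines were 3.96, 1.60 and 0.48 in experiment 1 and 3.62, 2.09 and 1.04 in experiment 2, where 3 against 3 libraries cannot reach the threshold. Signs turned for these differences, all of which missed the threshold. For LOUCY against JURKAT, PSMC1 was 0.21 in experiment 1 and 0.0089 without the steep-GC libraries (-0.21 to 0.0089 leaving out each library), and PSME1 was -0.034 after quantile normalization, -0.071 in experiment 2 and -0.097 under voom (-0.034 to 0.048). For JQ1, PSMB1 was -0.017 in experiment 2 (-0.021 to 0.068), PSME1 was 0.053 after quantile normalization, 0.061 in experiment 2 and 0.0075 under voom (-0.13 to 0.042), and PSMB10 over PSMB7 was -0.053 in experiment 1 (-0.043 to 0.058). For I-BET151, PSMB1 was 0.061 after quantile normalization, 0.083 in experiment 1 and 0.051 without the steep-GC libraries (-0.14 to 0.040). PSMB8 under JQ1 minus I-BET151 was -0.043 in experiment 1, and PSMB10 over PSMB7 under DMSO minus untreated ran from -0.083 to 0.0031.

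With a replicate block, 8 members were higher (17.0%, against 34.7% of all genes) and 26 lower (55.3%, against 36.8%) between the lines. With it 10 were lower under JQ1 (21.7%, against 15.2% of all genes) and 11 under I-BET151 (23.9%, against 15.3%). Same-numbered libraries deviated together in 15 of 42 pairs (r above 0.1, range -0.58 to 0.68). Where a group had 2 libraries in an experiment, their deviations from the mean mirror each other, so these pairs are not independent. The check therefore cannot tell whether the numbers are a pairing. Depth limits PSMA8 in LOUCY and PSMC1, which rest on few reads.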
